A study of Ovis aries with 32 samples.

Results

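Differentiation of male control preadipocytes into adipocytes was examined in 8 of the 32 libraries of the series, the 4 libraries of perirenal preadipocytes from male control fetuses (MC) and the 4 libraries of adipocytes differentiated in culture from such cells (MCD). The libraries were chosen by their column names and labels alone. The values of all transcripts of a gene were added up, and a gene was tested when this gene sum was at least 10 normalized reads in at least 4 of the 8 libraries, which kept 11605 of the 21271 genes of the table. The fetuses were near-term singletons of crossbred Columbia-Rambouillet ewes, and the control ewes were held at moderate temperature and pair-fed to heat-exposed ewes. Perirenal fat is a visceral depot around the kidney. The other groups of the series are female control cells (FC and FCD) and male and female cells from growth-restricted fetuses of the heat-exposed ewes (MFGR and MFGRD, FFGR and FFGRD). All cells were cultured outside the fetus, and the hormones and the number of days used for differentiation are not given in the sources used here. The labels also do not say whether the MC and MCD libraries with the same number came from 1 fetus.

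A preadipocyte is a fibroblast-like cell that is committed to become a fat cell. In culture it is usually pushed to differentiate by insulin, a glucocorticoid and agents that raise cyclic AMP, which switch on the transcription factors PPARG and CEBPA, and these in turn switch on the genes for taking up, making, storing and releasing fat. As the cell fills with lipid it rounds up, loses its actin bundles and changes the matrix around it.

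The 4 MC libraries held approximately 8.88 to 12.66 M reads and the 4 MCD libraries 7.79 to 13.29 M, so that a gene sum of 10 stood for 6.8 to 11.8 reads. MCD replicate 1 stood apart from the other MCD libraries and nearer to MC. Over the 386 genes called higher in MCD, its median shift from the MC mean was 2.04 on the log2 scale, against 2.83, 3.26 and 2.82 in MCD replicates 2 to 4. Over the 488 genes called lower, the shift was -1.50 in MCD replicate 1 against -2.50, -2.58 and -2.63. The libraries also differed in how steeply their values rose with the genomic span of a gene, with slopes of 0.3692 to 0.7324 log2 units for each log10 unit of span in MC and of 0.0733 to 0.6937 in MCD. The median log2 fold change was 0.25 in the 2902 genes with spans up to 6.82 kb and -0.37 in the 2901 genes with the longest spans, while all genes tested had a median of -0.02.

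Values are gene sums of the deposited normalized reads. A log2 fold change is the difference between the means of log2(gene sum + 1), which understates the change of low genes, and it was tested with limma with Benjamini-Hochberg adjustment over all genes tested. The p-values measure only the spread between these libraries. Between MC and MCD, 874 genes were called at an adjusted p below 0.05 and a fold change above 1.5, which is 7.53% of the genes tested. Of these, 386 were higher in MCD (3.33% of the genes tested) and 488 were lower (4.21%). At an unadjusted p below 0.05 there were 2788 genes. The rises were larger, with a median log2 fold change of 2.71 against -2.33 for the falls, and 116 genes rose by more than 16-fold whereas 66 fell by more than 16-fold. The 4 MC and 4 MCD libraries did not overlap in 850 of the 874 called genes. Over all genes tested, the libraries did not overlap for 7.59% in the direction of higher values in MCD and for 8.46% in the direction of lower values. A total of 81 of the called rises had fewer than 10 normalized reads in every MC library, and 43 of the called falls had fewer than 10 in every MCD library, so these genes passed the filter only through the group in which they were high. The medians of the rises and falls given above include them. When replicate number entered as a block, the count grew to 1854 genes (16% of the genes tested), 742 higher and 1112 lower, and all 874 genes were among them. On single transcripts, the block instead lowered the count from 448 to 207. The count also rested on single libraries. With the same 11605 genes it was 1875 without MCD replicate 1. It fell to 622, 433 and 587 without MCD replicate 2, 3 or 4. Without MC replicate 1, 2, 3 or 4 it fell to 403, 487, 382 and 566. All 874 genes kept their direction in each of these fits. For the 850 genes without overlap, leaving out 1 library could not change it, and the block leaves the log2 fold change as it was. The kept direction is thus no test of these calls. The plot of change against level shows both directions over the whole range of levels.

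**Figure D1:**
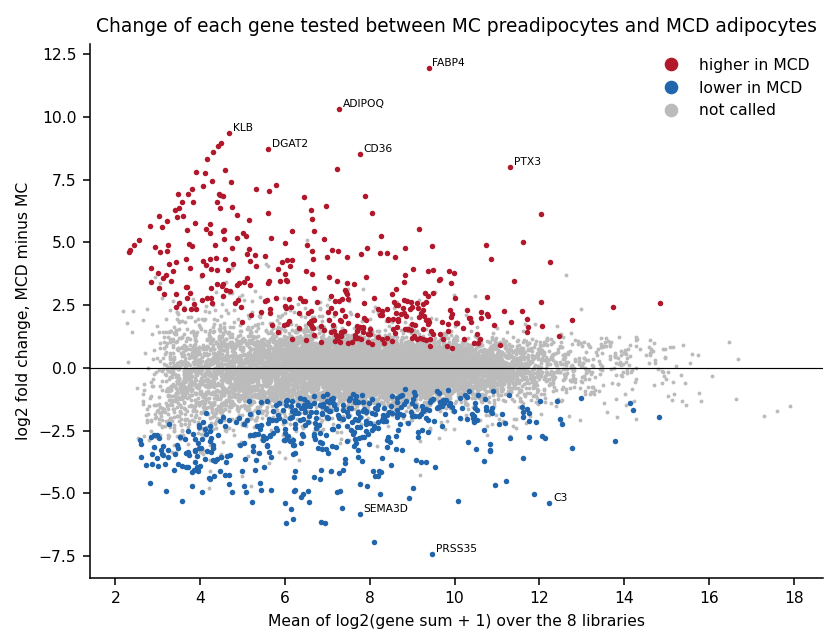
Each point is 1 of the 11605 genes tested, with the mean of log2(gene sum + 1) over the 8 libraries on the x axis and the log2 fold change of MCD over MC on the y axis. Red points are the 386 genes called higher in MCD, blue points the 488 called lower and grey points the genes not called, and FABP4 stands highest at 11.94 and PRSS35 lowest of the labelled genes at -7.40.

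The cells were first checked against markers of cell types. Of 12 markers of mature adipocytes, 11 were in the table and tested, and 11 rose, with a median log2 fold change of 6.79, or 5.74 with genes of at most 3 reads in every MC library set at their lower bound. Their summed level was 187 to 497 normalized reads in the MC libraries, against 12025 in MCD replicate 1 and 69061 to 194059 in MCD replicates 2 to 4. All 11 rose also without MCD replicate 1. Of the 11, PLIN4 and CIDEC passed the filter only through MCD. In these bulk samples fewer adipocytes in a culture and less RNA of these genes in each adipocyte cannot be told apart. Of 12 markers of preadipocytes or fibroblasts, 11 were tested, 3 fell (DCN, LUM and POSTN), 1 rose (THY1) and 7 were not called, with a median of -1.53, or -0.74 with the span slope of each library as a covariate. The summed level of this list was 1149199.9 to 1964190.4 in MC, 1174663 in MCD replicate 1 and 256763 to 567028 in the other MCD libraries. DLK1, a preadipocyte marker of the mouse, was listed at 0 in all 8 libraries.

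Markers of several other cell types were low, while those shared with smooth muscle were not. The 12 endothelial markers summed to 101 to 214 in MC and 19.8 to 71.9 in MCD, with TIE1 and ROBO4 listed at 0 throughout. The 13 leukocyte markers in the table summed to 96.3 to 242 in MC and 314 to 604 in MCD, and PTPRC, which marks all leukocytes, reached at most 2.94. CD14, a monocyte receptor, was at 86.8, 38.2, 77.2 and 31.3 in MC and 167, 381, 548 and 77.7 in MCD and was not called (adjusted p = 0.0708, and 0.0159 with the block), and CD163, a macrophage receptor, was at 6.13, 0, 6.15 and 1.44 in MC and 127, 35.2, 9.23 and 46.6 in MCD. The 6 red cell markers in the table summed to at most 1.88 in any library. Mesothelial markers summed to at most 80.4 and kidney or other epithelial markers to at most 106. Of the 11 skeletal muscle markers in the table only TNNI2 was tested, and it fell (log2 fold change -3.32, adjusted p = 0.00795). Of the 12 smooth muscle or pericyte markers 11 were tested, and MCAM rose while none fell. Their summed level was 13252 to 43998 in MC and 7083 to 38694 in MCD, and replicate 2 was the highest library of both groups. Of the bone or cartilage markers 3 were tested and not called.

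Genes of the adrenal gland, which lies beside perirenal fat, were low. The 10 adrenal markers in the table summed to 27.1 to 53.4 in MC and 186 to 626 in MCD, and 2 were tested and not called. CYP11A1, which makes pregnenolone from cholesterol, was listed at 0 in all MC libraries and stood at 12.3, 14.6, 0 and 259 in MCD, and the catecholamine enzymes TH and DBH were listed at 0 throughout. Glial and neuronal markers summed to 426 to 770.1 in MC and 1466 to 2093 in MCD, and of the 4 tested S100B rose. S100B, a calcium-binding protein that is also made by adipocytes, had values of 381, 348, 319 and 351 in MC and 489, 1332, 2029 and 1926 in MCD (log2 fold change 1.85, adjusted p = 0.0279). In MCD replicate 1 S100B made up the smaller part of the list, 489 of a sum of 1466. It made up most of the sum in the other MCD libraries.

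The largest rise was that of FABP4, the fatty acid binding protein of adipocytes (ENSOARG00020017607, Oar_rambouillet_v1.0, chromosome 9, 62825357 to 62830354). It was at 8.54, 14.9, 6.04 and 11.3 in MC and at 7654, 44948, 53192 and 167630.0 in MCD, a log2 fold change of 11.94 (SE 0.77, adjusted p = 8.08e-05). No MCD library came near the MC range, although MCD replicate 1 was the lowest of its group. ADIPOQ, the hormone adiponectin (ENSOARG00020000398, chromosome 1, 218921967 to 218933226), was at 0, 2.96, 3.01 and 21 in MC and at 1233, 6933, 13421 and 8436 in MCD, a log2 fold change of 10.33 (SE 0.95, adjusted p = 6.54e-04). The order of the MCD libraries was not the same for the 2 genes, since FABP4 was highest in replicate 4 and ADIPOQ in replicate 3. CD36, a fatty acid transporter of the cell surface (ENSOARG00020002333, chromosome 4, 45189097 to 45601450), was at 2.45, 4.05, 10.2 and 83.0 in MC and at 794, 6949.7, 9386 and 5821 in MCD (log2 fold change 8.53, SE 1.04, adjusted p = 0.00231). PTX3, a secreted pattern recognition protein (ENSOARG00020000946, chromosome 1, 250843217 to 250848677), was at 269, 35.1, 160.2 and 396 in MC and at 47822, 41523, 27295 and 47745 in MCD (log2 fold change 7.99, SE 0.64, adjusted p = 3.66e-04). Unlike the adipocyte genes, PTX3 was as high in MCD replicate 1 as in the others.

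Several of the 12 largest rises were not detected in preadipocytes. KLB, the co-receptor for FGF21, THRSP, a lipogenic nuclear protein, ABCG1, a cholesterol exporter, and the protein phosphatase inhibitors PPP1R1A and PPP1R1B were listed at 0 in all 4 MC libraries. In MCD, KLB stood at 209, 786, 1532 and 734 (adjusted p = 8.08e-05) and THRSP at 55.6, 639.6, 1599 and 788 (adjusted p = 0.00105). PPP1R1A was even across MCD, at 253, 211, 191 and 247 (adjusted p = 5.41e-05), whereas PPP1R1B went from 132 in replicate 1 to 416, 639.7 and 625 in the others (adjusted p = 8.08e-05). ITIH5, an inhibitor-like matrix protein, was listed at 0 in 3 MC libraries and at 5.12 in the other, and at 1091, 129, 1278 and 100.3 in MCD (log2 fold change 7.87, adjusted p = 0.00237). GLYAT, a mitochondrial glycine transferase, was at 0, 1.00, 0 and 0 in MC and at 12.2, 855, 244 and 1537 in MCD (adjusted p = 0.00788). DGAT2 completes this set and is described with triglyceride synthesis.

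The largest fall was that of PRSS35, a serine protease-like protein (ENSOARG00020017736, chromosome 8, 12032677 to 12033915). It was at 11355, 4318, 11842 and 12482 in MC and at 1653, 27.7, 19.7 and 8.12 in MCD, a log2 fold change of -7.40 (SE 1.36, adjusted p = 0.0116). The level in MCD replicate 1 was far above that in the other MCD libraries but still below every MC library. RRAD, a small GTPase that holds back calcium channels, was at 1495, 658, 1084 and 1161 in MC and at 193, 21.8, 8.63 and 0 in MCD (log2 fold change -6.20, adjusted p = 0.0184). The next falls among genes with a symbol were those of DNM1, a dynamin of vesicle uptake (-6.17), FMOD, the collagen-binding fibromodulin (-6.14), and LCTL, a klotho family member (-6.04). SEMA3D, a secreted guidance protein, changed by -5.82, and SLITRK2 by -5.61. XPNPEP2, an aminopeptidase, changed by -5.58 and CNGA3, a cyclic nucleotide-gated channel, by -5.38. C3, the central protein of complement, changed by -5.37, ZNF532 by -5.35 and CDH13, the adiponectin-binding T-cadherin, by -5.35. In all 12, MCD replicate 1 kept the highest MCD level, as the heat map of these genes shows.

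**Figure D2:**
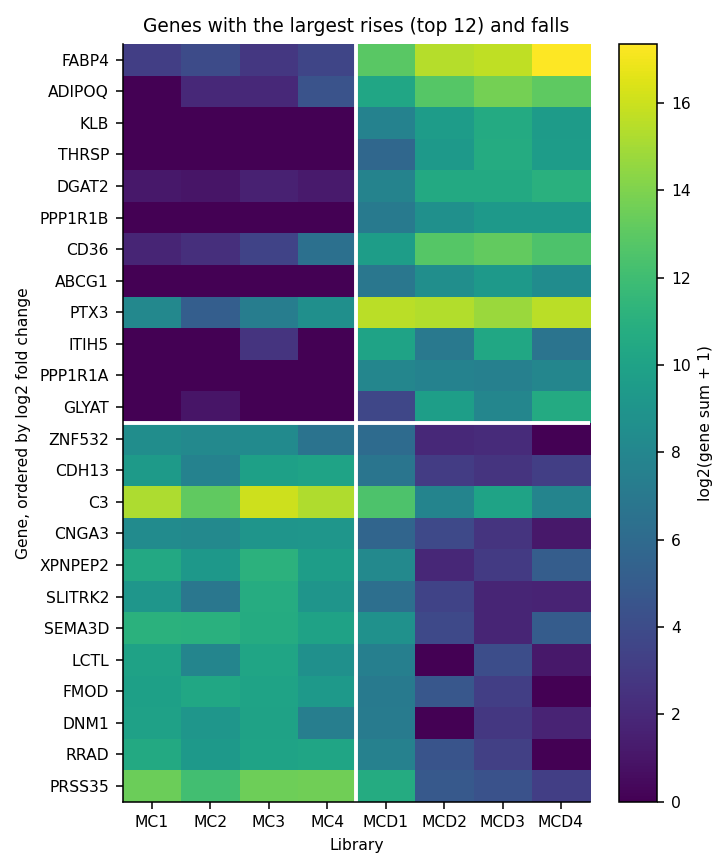
Rows are the 12 named genes with the largest called rises and the 12 with the largest called falls whose libraries do not overlap, columns are the 8 libraries, and colour gives log2(gene sum + 1). FABP4 goes from 6.04 to 14.9 normalized reads in MC to 7654 to 167630.0 in MCD, and in the lower 12 rows MCD1 is the brightest of the MCD columns.

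Among 25 listed transcription factors that promote adipogenesis, 22 were tested, 8 rose and none fell (median log2 fold change 1.11). RXRG and ZBTB16 among them passed the filter only through MCD. Over all genes tested 3.33% were called higher and 4.21% lower, the background for this and the following lists. PPARG, the receptor that drives adipogenesis, was at 55.0, 27.3, 57.1 and 236 in MC and at 274, 810.2, 1119 and 1989 in MCD (log2 fold change 3.62, SE 0.72, adjusted p = 0.0165). The highest MC library and the lowest MCD library were close but did not overlap. CEBPA, its partner, was at 29.3, 13.0, 25.3 and 14.2 in MC and at 184, 1062, 1299.7 and 1063 in MCD (log2 fold change 5.15, SE 0.61, adjusted p = 0.00205). RXRG, a retinoid X receptor that can pair with PPARG, was listed at 0 throughout MC and was at 24.4, 153, 306 and 189.8 in MCD. ZBTB16 rose by 7.29 and KLF15 by 3.42, both transcription factors that glucocorticoids induce. The early factors CEBPB (0.63, adjusted p = 0.228) and CEBPD (0.96, adjusted p = 0.242) and the glucocorticoid receptor NR3C1 (-0.69, adjusted p = 0.322) were not called, although CEBPB was called higher without MCD replicate 1. PPARGC1A, a coactivator of mitochondrial genes, had higher values in each MCD library than in any MC library and just missed the threshold (1.49, adjusted p = 0.0514, and 0.0429 with the block). Of 13 tested factors that restrain adipogenesis, only FOXO1 rose (2.34, adjusted p = 0.00320), and none fell. With the block, 11 of the promoting factors were called higher, and 3 of the restraining factors were called higher and 2 lower.

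**Figure D3:**
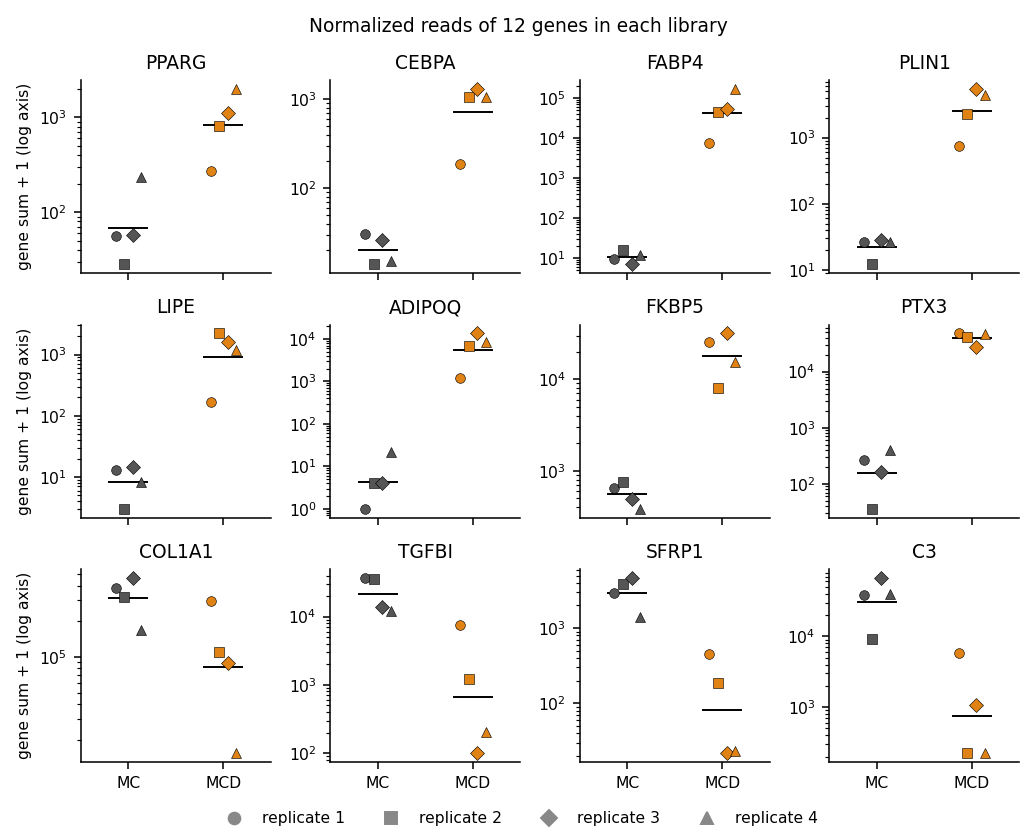
Points are the gene sums plus 1 of 12 genes in the 4 MC (grey) and 4 MCD (orange) libraries on a log axis, with a symbol for each replicate number and a bar at the mean of the log values. CEBPA and ADIPOQ are lowest in MCD replicate 1, PTX3 is at 27295 or more in every MCD library, and COL1A1 is the 1 gene of these whose groups overlap.

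Lipid droplet proteins were among the lists with the largest share of calls, with 5 of 8 tested members rising and none falling (median 2.27). PLIN4 and CIDEC among them passed the filter only through MCD. PLIN1, which coats the droplet and gates lipolysis, was at 25.7, 11.1, 27.5 and 25.7 in MC and at 747, 2316, 5438 and 4483 in MCD (log2 fold change 6.84, SE 0.59, adjusted p = 4.92e-04). PLIN4 had at most 2.88 in MC and was at 81.1, 422, 595 and 155 in MCD (adjusted p = 0.00108). CIDEC, which merges droplets, was at 0, 0, 1.01 and 5.64 in MC and at 18.8, 261, 154 and 67.1 in MCD (log2 fold change 5.49, adjusted p = 0.00807). PLIN2 was already at 1343, 916, 3039 and 2114 in MC and rose by 2.64 (adjusted p = 0.0117). PLIN3, a droplet coat protein of many cell types, was not called (0.55, adjusted p = 0.314).

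For fatty acid uptake and binding, 15 genes were tested, 7 rose and 1 fell (median 1.24). LPL, which frees fatty acids from lipoproteins, was at 51.4, 48.5, 276 and 5.72 in MC and at 591, 1441, 6447 and 515 in MCD (log2 fold change 4.79, SE 1.10, adjusted p = 0.0291). The spread between MC libraries was wide, and the lowest and highest libraries of both groups carried the same numbers, 4 and 3. The fatty acid transporter SLC27A6 was listed at 0 in MC and was at 14.5, 85.0, 149 and 94.1 in MCD. CAVIN2, a coat protein of caveolae, rose by 4.41. The member that fell was VLDLR, the very low density lipoprotein receptor, from 637, 420.1, 588 and 454 to 136, 168, 94.0 and 67.7 (log2 fold change -2.22, adjusted p = 0.00493). With the block, 10 members were called higher. Of 10 tested acyl-CoA synthetases, which activate fatty acids, 3 rose and 1 fell. ACSL1 rose by 4.90 (adjusted p = 8.70e-04), from 264, 286, 290.2 and 441 to 3561, 10249, 21380.2 and 9929.8. ACSL5 went the other way, from 948, 1289, 895 and 879.5 to 240.2, 187, 60.8 and 89.7 (log2 fold change -2.97, adjusted p = 0.00441). ACSS2, which makes acetyl-CoA from acetate, a main lipogenic carbon source of ruminants, rose by 4.58 (adjusted p = 0.00452).

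Of 15 tested genes of triglyceride synthesis, 7 rose and none fell, and all 15 had a positive log2 fold change (median 0.45). DGAT2 and MOGAT1 among them passed the filter only through MCD. The called members lay at most steps of the glycerol phosphate route, while no AGPAT enzyme, which adds the second fatty acid, was called. GPD1, which makes glycerol 3-phosphate, rose by 4.57 (adjusted p = 0.00798) and the acyltransferases GPAT3 and GPAM by 3.75 and 2.60. LPIN1, the phosphatidate phosphatase lipin, rose by 3.41. DGAT2, which adds the last fatty acid, was at 1.22, 1.00, 2.03 and 1.42 in MC, about 1 or 2 reads, and at 216, 1502, 1509.8 and 2025 in MCD (adjusted p = 2.25e-04). MOGAT1, which acylates monoglycerides, rose by 6.41 (adjusted p = 0.00231). The members that were not called changed little, such as GPAT4 (0.33) and AGPAT3 (0.26). PCK1, the enzyme of glyceroneogenesis, was not tested. It was listed at 0 in MC and at 3.35, 2.93, 42.2 and 12.8 in MCD.

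In de novo lipogenesis and desaturation, 5 of 17 tested genes rose and 1 fell (median 0.73). SCD, the stearoyl-CoA desaturase, was at 414, 684, 366 and 291 in MC and at 4438, 10206, 22119.5 and 4795 in MCD (log2 fold change 4.32, SE 0.51, adjusted p = 0.00205). ELOVL6 rose by 4.87 (adjusted p = 0.00161) and fatty acid synthase FASN by 2.27 (adjusted p = 0.0106). The second desaturase SCD5 fell by 2.62 (adjusted p = 0.0185), from 306, 244, 316 and 178 to 117, 51.4, 21.1 and 21. Unlike ACSS2, the enzymes that make acetyl-CoA from citrate and carboxylate it were not called, with ACLY, the ATP citrate lyase, at 0.03 (adjusted p = 0.955) and ACACA, an acetyl-CoA carboxylase, at 0.87 (adjusted p = 0.185). MLXIPL, the carbohydrate response factor, had at least 10 normalized reads in only 3 libraries and was not tested. It was at 0, 0, 1.02 and 0 in MC and at 5.61, 58.7, 75.0 and 34.9 in MCD.

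Lipolysis and its control had the largest median of the metabolic lists, 2.94, with 10 of 16 tested members rising and none falling. Of the 16, 3 passed the filter only through the group in which they were high. LIPE, the hormone-sensitive lipase, was at 12.2, 2.03, 13.3 and 7.17 in MC and at 169, 2207, 1586 and 1185 in MCD (log2 fold change 6.79, SE 0.80, adjusted p = 0.00205). PNPLA2, the adipose triglyceride lipase, rose by 3.68 (adjusted p = 0.00899), and its coactivator ABHD5 by 2.18 (adjusted p = 0.0427). Both sides of the cyclic nucleotide control changed. ADCY5, an adenylyl cyclase, had 2.45 in 1 MC library and 0 in the others, and was at 85.5, 359, 395 and 143 in MCD. PDE3B, the phosphodiesterase through which insulin stops lipolysis, was at 211, 239.6, 270.5 and 233 in MC and at 1227, 1647, 7991 and 3096 in MCD (log2 fold change 3.48, adjusted p = 0.00481). NPR3, the clearance receptor of natriuretic peptides, rose by 6.29 (adjusted p = 0.00205), and NPR1, the receptor that signals, by 2.63 (adjusted p = 0.00802). ADRB3, the adrenergic receptor of fat, was not tested, at 0 throughout MC and at 8.94, 145, 93.7 and 81.2 in MCD. MGLL, the monoglyceride lipase, just missed the threshold (2.92) and was called with the block (adjusted p = 0.0135).

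Among adipokines and other secreted adipose proteins, 5 of 14 tested genes rose and 1 fell (median 1.03). Beside ADIPOQ, PTX3 and LPL these were SFRP5, an inhibitor of Wnt ligands (4.35, adjusted p = 0.0174), and NAMPT, an NAD-making enzyme that is also secreted (1.13, adjusted p = 0.0406). GREM1, a BMP antagonist, fell by 3.13 (adjusted p = 0.0419), although the groups overlapped in 1 library. Retinol binding protein RBP4 (0.85, adjusted p = 0.316) and chemerin RARRES2 (1.61, adjusted p = 0.211, and 0.0288 with the block) were not called. CFD, the adipsin of mouse fat, reached at most 4.32 in any library and RETN, resistin, was listed at 0.

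Of 24 tested genes of insulin action and glucose uptake, 5 rose and 1 fell (median 0.54). PDK4, which turns pyruvate away from oxidation, was at 8.56, 5.06, 57.1 and 7.15 in MC and at 297, 1052, 1481 and 808 in MCD (log2 fold change 5.93, SE 0.74, adjusted p = 0.00236). TRARG1, a protein of the GLUT4 compartment, was listed at 0 in MC and at 14.7, 14.1, 136 and 189 in MCD. PPP1R3B, a glycogen-targeting subunit, fell (adjusted p = 0.0469). The insulin receptor INSR was not called (0.83, adjusted p = 0.326). SLC2A4, the insulin-responsive glucose transporter GLUT4, was at 0, 0, 2.03 and 0 in MC and at 2.23, 11.7, 32.3 and 47.6 in MCD and was not tested.

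Perirenal fat of newborn lambs is a brown fat depot, and 8 of 25 listed thermogenic genes were high enough to be tested. Of these, KLB and UCP2 rose and none fell (median 1.34). Both had fewer than 10 normalized reads in every MC library and passed the filter only through MCD. UCP1, the uncoupling protein of brown fat, was listed at 0 in all MC libraries and in MCD replicate 1, and was at 284, 126 and 68.5 in MCD replicates 2 to 4, so it passed the minimum in only 3 libraries and was not tested. ELOVL3 was at 0, 0, 1.01 and 0 in MC and at 5.53, 8.74, 77.5 and 149 in MCD. CIDEA, a droplet protein of brown fat, was at 36.6, 51.7, 69.5 and 76.1 in MC and at 26.4, 312, 209 and 336 in MCD (1.45, adjusted p = 0.262), and it was called higher without MCD replicate 1. PRDM16 stood at 4.32 to 17.2 in MC and at 0.840 to 9.01 in MCD.

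Of 28 tested genes of fatty acid oxidation, 6 rose and none fell (median 0.98, or 0.49 with the span slope as a covariate). EHHADH and SCP2, of the peroxisome, rose by 2.70 and 2.52, and ABCD2, a peroxisomal transporter, was at 1.22, 3.04, 0 and 0 in MC and at 16.8, 74.8, 92.0 and 57.0 in MCD (adjusted p = 0.00518). PEX11A rose by 2.45. CPT1A, the gate of mitochondrial oxidation, was not called (1.66, adjusted p = 0.0854, and 0.0156 with the block). With the block 11 members were called higher, and without MCD replicate 1 the count was 17 higher and 1 lower. None of 21 tested genes of the citric acid cycle was called (median 0.41), and with the block 2 were. None of 52 respiratory chain subunits was called, although 50 had a positive log2 fold change (median 0.76), and all 36 ribosomal protein genes also did (median 0.91) with none called. Both lists hold genes of short span. Respiratory chain genes had a median span of 7.27 kb and ribosomal protein genes of 3.92 kb, and with the span slope of each library as a covariate their medians were 0.12 and 0.02. This slope was computed from the same gene sums, and it was lower in MCD replicates 2 to 4 than in MC replicates 1 to 3. The covariate is thus no independent test, and the cause of these shifts was not tested. The median shift of the ribosomal protein genes was -0.02, 1.10, 0.13 and 2.24 in MCD replicates 1 to 4, in the reverse order of the span slopes of those libraries. The median of lipolysis genes was 2.62 and that of lipid droplet proteins 1.83 with this covariate. It moved by more than 1.5 times for other lists, to 0.22 for acyl-CoA synthetases, 0.36 for de novo lipogenesis, 0.87 for insulin action, 0.04 for antioxidant genes and 0.11 for retinoid genes. Among the other lists it moved to 1.22 for the cell cycle, -1.18 for interferon response genes, -0.13 for TGF-beta genes and -0.38 for growth factors. Of the matrix lists it became -0.27 for collagen modification, -0.18 for the basement membrane and -0.38 for proteases. With the block, 5 respiratory chain and 7 ribosomal protein genes were called higher, and without MCD replicate 1 these counts were 16 and 1.

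**Figure D4:**
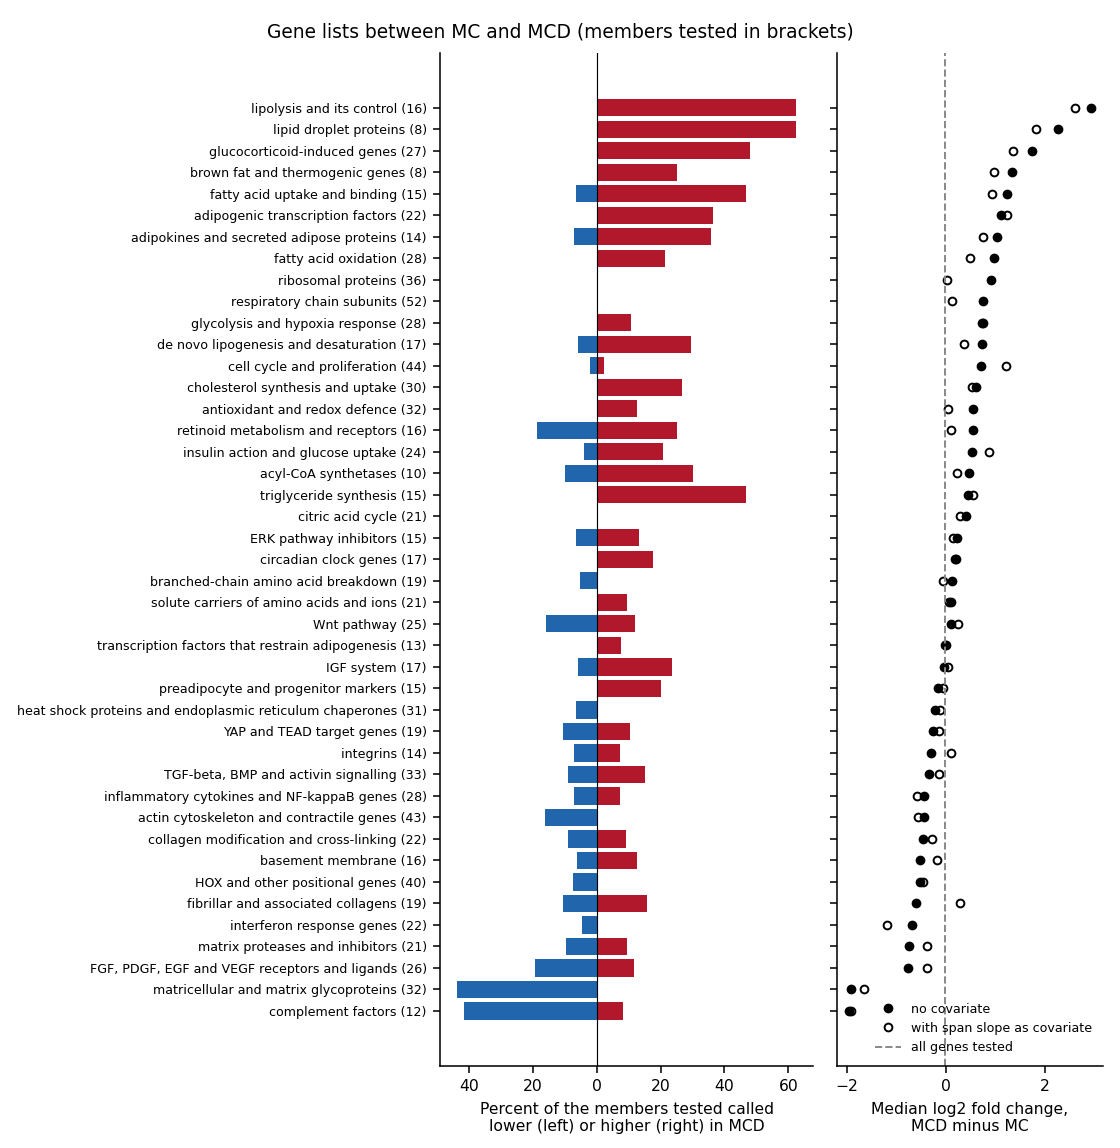
Bars give for each gene list the percent of its tested members (number in brackets) called higher in MCD (red, to the right) or lower (blue, to the left). Points give the median log2 fold change of the tested members without a covariate (filled) and with the span slope as a covariate (open), beside the median of all genes tested (dashed, -0.02). The lists of lipolysis (2.94) and lipid droplet proteins (2.27) lie highest and those of complement factors (-1.96) and matricellular proteins (-1.92) lowest, and the open points of ribosomal proteins (0.02) and respiratory chain subunits (0.12) lie near the dashed line.

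Genes that glucocorticoids induce formed another group of large rises, with 13 of 27 tested members rising and none falling (median 1.74). Of the 27, 3 passed the filter only through the group in which they were high. FKBP5, a chaperone of the glucocorticoid receptor (ENSOARG00020022803, chromosome 20, 11254529 to 11324058), was at 647, 758, 486 and 383 in MC and at 25436, 8023, 31697 and 15477 in MCD (log2 fold change 5.01, SE 0.43, adjusted p = 4.92e-04). ZBTB16 was at 7.35, 1.02, 8.19 and 1.44 in MC and at 1776, 328, 1160.3 and 333 in MCD (log2 fold change 7.29, SE 0.72, adjusted p = 9.61e-04). MCD replicate 1 was not the lowest MCD library for either gene. Over the whole list it was, with a median shift of 0.76 against 2.08, 1.54 and 1.65 in MCD replicates 2 to 4. The metallothionein MT1A, whose near-identical copies can share reads, rose by 6.44 (adjusted p = 0.0194), and HIF3A was listed at 0 in MC and at 15.7, 16.1, 96.2 and 50.0 in MCD. DUSP1 (0.92, adjusted p = 0.206) and SGK1 (1.00, adjusted p = 0.421) were not called, although DUSP1 was called higher without MCD replicate 1. Without MCD replicate 1, 14 of the 27 rose. Of 17 tested circadian clock genes, PER1 (2.87), ARNTL (1.48) and RORA (1.22) rose.

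Sterol genes rose in part. Of 30 tested genes in the list of cholesterol synthesis and uptake, 8 rose and none fell (median 0.61). The list also holds genes of other roles, such as the exporter ABCG1. ABCG1, listed at 0 in MC, was at 115, 376, 660.3 and 347 in MCD (adjusted p = 9.73e-05). LPCAT3 rose by 2.37 (adjusted p = 0.00677), INSIG1 by 1.96 (adjusted p = 0.0198) and IDI1 by 1.84 (adjusted p = 0.0419). In glycolysis and the hypoxia response 3 of 28 rose, with PFKFB3, which speeds glycolysis, at 2.44 (adjusted p = 0.00368), and with the block 7 rose and 1 fell. Among 32 antioxidant genes, 4 rose, including MGST3 (3.94), MGST1 (3.45) and catalase CAT (1.69). Retinoid genes went both ways. ALDH1A1, which makes retinoic acid, was at 7.34, 9.12, 105 and 106 in MC and at 1111, 1847, 3506 and 3569 in MCD (log2 fold change 6.17, adjusted p = 0.00452), whereas ALDH1A3 and the receptor RARG both fell by 3.01 (adjusted p = 0.0427 and 0.00406).

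Matrix genes were described by class. Of 32 tested matricellular and matrix glycoprotein genes, 14 fell and none rose (median -1.92). With the block 20 fell and 1 rose, and without MCD replicate 1 18 fell. FMOD was at 937, 1269, 1070.1 and 678 in MC and at 143, 24.9, 8.49 and 0 in MCD (log2 fold change -6.14, SE 1.20, adjusted p = 0.0156). TGFBI, a protein induced by TGF-beta, was at 36847, 35842, 13706 and 11936 in MC and at 7507, 1229, 98.6 and 204 in MCD (log2 fold change -5.03, SE 1.16, adjusted p = 0.0300). The elastic fibre proteins FBLN5 and MFAP2 fell by 4.62 and 4.10. The proteoglycans decorin (DCN) and lumican (LUM) fell less, by 1.96 and 1.41. FN1, fibronectin, was not called (-1.31, adjusted p = 0.395).

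Collagens did not move as 1 group. Of 19 tested genes in a list of fibrillar, associated and other collagens, 3 rose and 2 fell (median -0.61, and 0.28 with the span slope as a covariate). COL16A1 was at 13719, 12904, 16106 and 5659 in MC and at 3085, 451, 352 and 121 in MCD (log2 fold change -4.51, SE 0.83, adjusted p = 0.0117), and COL8A2 fell by 3.12. COL21A1 rose by 4.89 (adjusted p = 0.00507) and COL18A1, the source of endostatin, by 4.41, from 51.4, 188, 36.9 and 131 to 1665, 3517, 1737 and 1004 (adjusted p = 0.00240). COL1A1 was at 378678, 323980.1, 464795 and 168736 in MC and at 298543, 110857, 89218 and 15368 in MCD (-1.93, adjusted p = 0.201). The low MCD values of COL1A1 lay in replicates 2 to 4, and MCD replicate 1 lay within the MC range. COL1A2 (-1.74) and COL3A1 (-1.53) were not called either. With the block COL1A1 and COL1A2 were called (adjusted p = 0.0443 and 0.0405), and the list had 4 rises and 6 falls. In the basement membrane, 2 of 16 tested genes rose and 1 fell. The type IV collagen genes COL4A1 and COL4A2, which lie side by side in mammals, rose by 2.59 and 2.44. COL4A1 was at 19191, 15770.0, 8545 and 8163 in MC and at 95939, 55762, 157435 and 33211 in MCD (adjusted p = 0.0189). LAMA5 fell by 3.34 (adjusted p = 0.00452).

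Among the enzymes that modify and cross-link collagen, 2 of 22 rose and 2 fell. P3H2, a prolyl hydroxylase that acts on type IV collagen, was at 31.8, 45.7, 21.5 and 23.0 in MC and at 794, 638, 846 and 763 in MCD, a log2 fold change of 4.65 with a small error (SE 0.30, adjusted p = 8.08e-05). The transglutaminase TGM2 rose by 3.86, while LOXL1 and CRTAP fell by 1.79 and 0.92. Of 21 tested proteases and inhibitors 2 rose and 2 fell. TIMP3, a matrix-bound protease inhibitor, rose by 2.84 (adjusted p = 0.00395), and PLAU, the urokinase, fell by 3.02 (adjusted p = 0.00319). The integrin chain ITGA6, which binds laminin, rose by 4.53 (adjusted p = 0.00595) and ITGA3 fell by 4.61 (adjusted p = 0.00441), and the other 12 integrins tested were not called.

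Of 43 tested actin cytoskeleton and contractile genes, 7 fell and none rose (median -0.45), and with the block 14 fell. FLNC, a filamin, was at 1968, 3976, 1315 and 862 in MC and at 333, 214, 15.9 and 5.84 in MCD (log2 fold change -5.01, adjusted p = 0.0293). LMO7 fell by 3.70 and MYH10, a nonmuscle myosin, by 2.92, with MCD replicate 1 of MYH10 inside the MC range. ACTC1, an actin of the heart, was at 18.4, 97.7, 117 and 321 in MC and at no more than 2.91 in MCD (adjusted p = 0.00677). ACTA2, the smooth muscle actin of myofibroblasts, was not called (-1.35, adjusted p = 0.274, and 0.0147 with the block), nor was the vinculin gene VCL (-0.43). Of 44 tested cell cycle genes, CCND3 rose by 1.91 and CCND1 fell by 2.88 (adjusted p = 0.0279 and 0.00835), and the list had a median of 0.71. These calls are no larger a share than the 3.33% of all genes tested called higher and the 4.21% called lower.

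Complement factors had a median log2 fold change of -1.96, with 5 of 12 tested members falling and 1 rising. C3 was at 38126, 9076, 67272 and 39509 in MC and at 5799, 225, 1087 and 222 in MCD (log2 fold change -5.37, SE 1.02, adjusted p = 0.0139). CFB, which forms the C3 convertase, fell by 3.73 and the proteases C1S and C1R by 2.80 and 2.73. C1QTNF1, an adiponectin-like secreted protein and not a complement factor in function, rose by 4.22 (adjusted p = 0.00259). In the inflammatory list 2 of 28 rose and 2 fell. IL33, an alarmin of stromal cells, was at 446, 427, 626 and 666 in MC and at 77.9, 40.6, 4.34 and 19.6 in MCD (log2 fold change -4.44, adjusted p = 0.00677). Of 22 interferon response genes only PSMB8, a proteasome subunit, fell (adjusted p = 0.0202), a share near the 4.21% of all genes tested that fell. In this list 19 had a negative log2 fold change, and MX2 was at -3.36 (adjusted p = 0.177). MC replicate 4 stood apart in this list, with a summed level of 47729 against 7586 to 11376 in the other MC libraries and 5878 to 11438 in MCD. MX2 was at 831 in MC replicate 4 and at 12.3 to 31.7 in the other MC libraries. With the block, 6 were called lower.

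Signalling genes moved in both directions. In the IGF system 4 of 17 rose and 1 fell. IGF2, a fetal growth factor, was at 3.66, 0, 0 and 2.83 in MC and at 1019, 716, 466 and 40.5 in MCD (adjusted p = 0.00367), with MCD replicate 4 far below the others. IGFBP3 rose by 5.27 (adjusted p = 4.92e-04) and PAPPA2, a protease of IGF binding proteins, by 7.12 (adjusted p = 0.00452), while IGFBP6 fell by 4.67 (adjusted p = 0.00494). In the Wnt pathway 3 of 25 rose and 4 fell. The secreted inhibitors split, with SFRP1 and SFRP4 falling by 5.18 and 4.78 and SFRP5 rising by 4.35, and NKD1, an inhibitor inside the cell, rose by 5.13. Of 33 tested genes of TGF-beta, BMP and activin signalling, 5 rose and 3 fell. ID1, ID2, ID3 and ID4, inhibitors of DNA binding that BMPs induce, rose by 3.53, 2.93, 2.64 and 1.93. ACVR1C, an activin receptor of fat, had at most 3.05 in MC and was at 21.2, 20.5, 96.4 and 23.2 in MCD. Of 26 ligands and receptors of the FGF, PDGF, EGF and VEGF families, 3 rose and 5 fell. FGF18 fell by 4.72 and the EGF receptor ligand EREG fell by 4.09, while AREG, another such ligand, had at most 2.86 in MC and was at 10.1, 14.6, 150.0 and 43.0 in MCD (adjusted p = 0.0333). Among inhibitors of the ERK pathway DUSP4 rose by 4.74, SPRY4 by 3.20 and SPRED3 fell by 3.13, and 12 of 15 were not called. Of these lists, 3 growth factor genes, 2 Wnt genes and 2 ERK inhibitors passed the filter only through the group in which they were high.

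The remaining lists held few calls, beside 3.33% of all genes tested called higher and 4.21% called lower. Of 15 tested markers of preadipocytes and progenitors, MCAM (5.44), THY1 (2.61) and the coagulation factor receptor F3 (1.90) rose and none fell, and PDGFRA was at -1.91 (adjusted p = 0.163). With the block 3 members were called lower, PDGFRA among them (adjusted p = 0.0188). Of 40 tested HOX and other positional genes, TBX15, OSR1 and FOXF1 fell by 3.26, 2.18 and 1.74, none rose, and no HOX gene was called. Among heat shock proteins and chaperones HSPB7 and HSPB6 fell by 3.60 and 2.71 and 29 of 31 were not called. Of 21 solute carriers 2 rose and none fell, with SLC43A2 at 2.17, and PPM1K, which activates branched-chain ketoacid breakdown, was the 1 gene of 19 of that pathway that was called, falling by 1.60. Of 19 YAP and TEAD target genes 2 rose and 2 fell.

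With the block, several of these lists held more calls, beside a background of 16% of all genes called. Of the 40 HOX and positional genes tested 3 rose and 10 fell, of 21 solute carriers 6 and 5, of 33 TGF-beta, BMP and activin genes 8 and 5, and of 31 heat shock proteins and chaperones 3 and 3, a share near the background. Of 26 growth factor ligands and receptors 4 rose and 10 fell, of 28 inflammatory genes 2 and 7, of 21 matrix proteases and inhibitors 2 and 6, and of 22 enzymes of collagen modification 2 and 5. The block also gave calls in the basement membrane (3 and 3 of 16), de novo lipogenesis (6 and 3 of 17), retinoid genes (6 and 4 of 16), antioxidant genes (7 and 2 of 32) and YAP and TEAD targets (2 and 4 of 19). Among marker lists, the block gave 6 falls and 1 rise for preadipocytes or fibroblasts, 6 falls and 2 rises for smooth muscle or pericytes, 2 rises for the adrenal gland and 1 for leukocytes (CD14). It also gave 2 falls among the 3 endothelial markers tested and 1 fall among the 2 kidney or other epithelial markers tested. None of these markers of endothelium or epithelium was called without the block.

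The study compiled 21 genes as changed during differentiation in sheep, mouse and human, and it chose them on these samples among others, so they are no independent evidence of a direction. Of the 21, 14 rose, 6 fell and LRRFIP1 was not called (-0.81, adjusted p = 0.0815), with values of 4238, 6133, 4703 and 4539.6 in MC and 3498, 2186, 2688 and 2862 in MCD. Its libraries did not overlap, and without MCD replicate 1 it was called lower. The 6 that fell were LMO7 (-3.70), POSTN (-3.29), SPRED3 (-3.13), NEXN (-2.20), PLS3 (-2.10) and TPM2 (-1.69), of which LMO7, NEXN, PLS3 and TPM2 bind actin or junctions. Of the 21, 7 passed the filter only through the group in which they were high.

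The response of MC was set beside that of the other groups, which share no library with it, on the same 11605 genes. Between FC and FCD 49 genes were called (0.422%), between MFGR and MFGRD 382 (3.29%) and between FFGR and FFGRD 253 (2.18%). Negative span slopes, which no MC or MCD library had, were those of FC replicate 2 (-0.178), MFGR replicate 1 (-0.1166) and MFGRD replicate 1 (-0.0898). FFGR replicate 2 (-0.3222) and FFGRD replicate 3 (-0.2565) also had them, and their bearing on these counts was not tested. Of the 874 genes called in MC, 863 (98.7%) changed in the same direction in FC, 864 (98.9%) in MFGR and 859 (98.3%) in FFGR, against 65.9%, 69.2% and 59.3% of all genes tested. The calls in common with FC were 46, which are 5.26% of the MC calls and 93.9% of the FC calls. With MFGR they were 271, or 31.0% of the MC and 70.9% of the MFGR calls, and with FFGR 197, or 22.5% and 77.9%. The 386 genes that rose in MC had a median log2 fold change of 1.72 in FC, 1.92 in MFGR and 2.29 in FFGR, and the 488 that fell had -1.57, -1.77 and -1.92. These genes were chosen by their change in MC, so smaller medians elsewhere cannot by themselves be read as a difference in response.

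The difference itself was tested by the interaction of differentiation and group. None of 12218 genes was called for a different response in MC and FC (0%), none of 12220 for MC and MFGR (0%) and none of 12255 for MC and FFGR (0%). Unadjusted p-values were below 0.05 for 211, 195 and 223 genes, each a smaller share than the 0.05 that no difference at all would give. The smallest adjusted p-values were 0.885, 0.966 and 0.791 (limma). For ADIPOQ the log2 fold change was 10.33 in MC, 4.98 in FC, 6.69 in MFGR and 5.26 in FFGR, with unadjusted interaction p-values of 0.0147, 0.0399 and 0.0145. These p-values share the same MC and MCD libraries, and none passed after adjustment, so they show no difference in response. For FKBP5 the values were 5.01, 5.34, 5.33 and 5.48, and for PTX3 7.99, 6.92, 8.14 and 8.34. In all 4 groups 28 genes were called in the same direction, 14 higher and 14 lower. Those 14 higher included FABP4, PTX3, FKBP5, ZBTB16, NPR3, ITIH5 and PPP1R1A, and the 14 lower included CNGA3, RARG and ACSL5. CD248, a surface protein of fibroblasts that was chosen after its values were seen, also fell in all 4 groups (-3.30 in MC). The plots of the response in MC against the other groups show the calls along the diagonal.

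**Figure D5:**
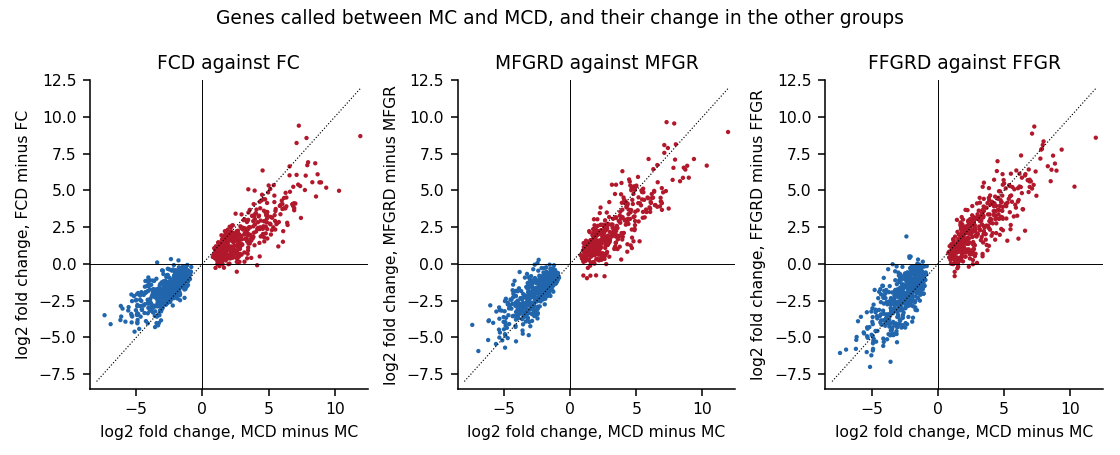
Each point is 1 of the 874 genes called between MC and MCD, with its log2 fold change in MC on the x axis and its log2 fold change in FC, MFGR or FFGR on the y axis of the 3 panels. The dotted line marks equal change, red points rose and blue points fell in MC, and 863, 864 and 859 points lie in the quadrants of the same direction.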

How the data were processed

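RNA from 32 pellets of cultured perirenal cells was sequenced (Swift RNA kit, NextSeq500), and 8 libraries, MC and MCD with 4 each, enter here. The labels call the cells perirenal preadipocytes, although their extraction text speaks of adipose tissue thawed in Trizol. The authors discarded reads with a Phred score under 34, used Salmon with the Ensembl transcripts of the Oar_rambouillet_v1.0 assembly and scaled the result by DESeq2 median-ratio size factors. The deposited values are this normalized signal, neither whole counts nor scaled by length, so levels were not compared between genes. The authors' own fold change and p columns, which the table also holds, were not used.

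Transcripts were summed by gene. Each gene with a sum of at least 10 in at least 4 of 8 libraries was tested with limma 3.58.1 on log2(value + 1), using the trend option of its empirical Bayes step. Called genes had a Benjamini-Hochberg adjusted p below 0.05 and a fold change above 1.5. Differences in response were tested as limma interaction terms over 16 libraries. Reads per library were estimated from the smallest step between values, and values at the floor of 3 reads or fewer in every library of a group carry no fold change. The script was tested on simulated data.

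The block took the replicate number as a factor. MC and MCD libraries with the same number deviated together, with correlations of 0.444, 0.155, 0.342 and 0.667 for replicates 1 to 4, although MC replicate 2 correlated more with MCD replicate 1 (0.25) than with its own number. As each pair exceeded 0.1, the numbers were taken to pair the libraries in the block, which the labels do not state, while the main fit took no pairing. Replicate 4 also had the lowest span slope of each group (0.3692 in MC and 0.0733 in MCD). What gave the correlations was not tested.

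The members and gene lists were chosen with earlier results of these data known. Named genes are the 12 largest rises and 12 largest falls whose libraries do not overlap, up to 4 called members of each list with the largest change, members that were not called, the 21 genes of the study and the cell type markers. KLF15, CAVIN2, VLDLR, GPAM, LPIN1, FASN, ABHD5, NPR1, NAMPT, PPP1R3B, C1R, ID3, ID4 and CD248 lie outside this rule and were chosen after their values were seen. Some list members are not reported by name here. Where no count is given, at most 1 member of a list passed the filter only through the group in which it was high.

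Alternatives were pseudocounts of 0.1 and 10, quantile and median-ratio scaling, no filter, a filter of 20 CPM in 3 libraries, 1 fit of all groups, single transcripts, library weights, the span slope as a covariate, the block, no trend and leaving out each library. Leaving out libraries on the same genes and blocking single transcripts were chosen after seeing the data.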

Additional observations from a re-analysis of the deposited data

Results flagged for a closer look

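Among the named genes and library measures, 340 groups of 4 libraries were examined for a library far from the other 3 on the log2 scale, and 12 (3.53%) held one. Chance alone gives about 1 in 20 groups. MCD replicate 1 was the library in 6 of the 12. It held the lowest MCD values of CEBPA (184), DGAT2 (216), ACSS2 (363), PEX11A (35.0) and CEBPB (1200.4), and the highest MCD value of CDH13 (108). MC replicate 2 stood apart in 3 genes, with the lowest MC values of PRSS35 (4318) and PLIN1 (11.1) and the highest of ACTA2 (20923). In the other MC libraries, CPT1A stood at 141 in replicate 1 and NPR3 at 1.44 in replicate 4. ACVR1C stood at 96.4 in MCD replicate 3.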

How the results depend on the processing

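The count of 874 called genes (386 higher, 488 lower) stayed within 1.5 times under the other pseudocounts, quantile or median-ratio scaling, no filter, 1 fit of all groups, no trend and the span slope as a covariate. It was 427 (193 and 234) with the filter of 20 CPM, where fewer genes were tested, 448 (233 and 215) on single transcripts, 2052 (880 and 1172) with library weights and 1854 (742 and 1112) with the replicate block. On single transcripts with the block it was 207 (134 and 73), and the cause of the opposite effect of the block was not tested. Leaving out 1 library with a new filter gave 311 (without MCD replicate 3) to 1746 (without MCD replicate 1), with 138 to 708 higher and 135 to 1038 lower. On the same genes, leaving out MC replicate 1, 2, 3 or 4 gave 403 (222 higher, 181 lower), 487 (241, 246), 382 (218, 164) and 566 (275, 291). Leaving out MCD replicate 1, 2, 3 or 4 gave 1875 (812, 1063), 622 (275, 347), 433 (218, 215) and 587 (276, 311). Quantile scaling left 46.1% and the span slope 49.9% of calls higher, against 44.2%. A similar count did not mean the same genes. Of the 874, 500 were also called with the span slope as a covariate (651 calls) and 665 in 1 fit of all groups (943 calls). Under the other pseudocounts, the 2 scalings, no filter and no trend, 766 to 868 of them were also called.

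Of 151 named calls, 151 were also called with the block, 141 with a pseudocount of 0.1, 113 with the span covariate and 104 to 149 without 1 library on the same genes. Of 146 that could be followed on single transcripts, 96 were called there, and 58 with the block added. No named call reversed. For genes whose libraries do not overlap, the block or leaving out 1 library could not reverse a call. Without MCD replicate 1, on the same genes, FOXF1 and LOXL1 were no longer called and CEBPB, CIDEA, CPT1A, DUSP1, LRRFIP1, MGLL and PDGFRA were. Uncalled genes that changed sign were ACLY (-0.08 on transcripts, and -0.12 to 0.20 over leaving out each library, with -0.04 without MCD replicate 1 or 3), INSR (-1.21) and PPARGC1A (-0.48) on transcripts, and FN1 (0.08) with the span covariate. The differences in response between MC and FC, MFGR or FFGR had 0 calls with a pseudocount of 0.1, quantile scaling, no filter, the block and without each library, the alternatives run for them, and on gene sums the block changed no call named in the text beyond the 9 genes it added, each given beside its result. Values near the floor, and genes high only in MCD, are limited by depth.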
